A study of Mus musculus with 6 samples.

Results

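Contraction of a muscle fiber ends when calcium is taken back from the cytosol, and 9 genes for that reuptake and for the storage of calcium were examined in fetal mouse leg muscle. They were given as a list of symbols and were found by Ensembl gene ID among the 56262 genes of the count table. *Atp2a1* and *Atp2a2* encode pumps of the sarcoplasmic reticulum, *Sln* and *Pln* encode small inhibitors of the pump, *Casq1*, *Casq2*, *Hrc* and *Srl* encode calcium-binding proteins of the reticulum, and *Pvalb* encodes a calcium buffer of the cytosol. RNA-seq was done on 3 WT and 3 *SYISL* KO samples of leg muscle at embryonic day 18.5. Mice were mated with partners of their own genotype, so WT fetuses grew in WT dams and KO fetuses in KO dams, and the genotype of the fetus cannot be told apart from that of the dam. *SYISL* is a long noncoding RNA whose locus overlaps an intron of *Synpo2*, and it is deleted in the KO mice. No treatment of either group is named. The sources used here do not state the strain, the litter, the sex of the fetuses or whether 1 fetus or a pool made up a sample, so the p-values measure the spread between these samples, part of which may be technical.

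In skeletal muscle, calcium leaves the sarcoplasmic reticulum through release channels and is pumped back by SERCA, a calcium ATPase. SERCA1, the product of *Atp2a1*, is the pump of fast fibers, and SERCA2, the product of *Atp2a2*, is the pump of slow fibers and the heart, with a variant that is present in most other cells. Calsequestrins hold calcium inside the reticulum at high capacity and low affinity, CASQ1 in skeletal muscle fibers and CASQ2 in slow fibers and the heart. Sarcolipin and phospholamban, the products of *Sln* and *Pln*, are short membrane peptides that bind the pump and slow it. Parvalbumin binds calcium in the cytosol of fast fibers and speeds relaxation.

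The depth was 82054811 to 102233181 counts per sample, and levels are given as CPM, counts scaled by TMM library size, on which 3 counts equal 0.0284 to 0.0363 CPM. *SYISL* has no entry of its own under that symbol. Its host gene *Synpo2* went from 136 ± 4.21 CPM (WT) to 214 ± 18.9 CPM (KO; SD, n = 3), which does not show whether *SYISL* itself was deleted. The libraries also differed in other cell types. The 6 keratinocyte markers were all called lower in KO, with a summed level of 15645 to 23542 CPM in WT, against 650 to 757 CPM in KO, and the 5 red blood cell markers were all called lower, from 3927 to 5167 CPM down to 545 to 664 CPM. Of 14 genes used by all skeletal muscle fibers, 9 were called higher and 0 lower, with a sum of 5343 to 5669 CPM in WT, against 9062 to 10546 CPM in KO. More muscle cells in the sample and more RNA of a gene per muscle cell cannot be told apart in such bulk libraries.

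Of the 9 genes, 7 rose in KO, *Atp2a2* did not pass the test, and *Pln* had too few counts to be tested. *Pvalb* rose 18.3-fold, *Casq1* 3.14-fold, *Atp2a1* 2.91-fold and *Sln* 2.0-fold, and *Hrc*, *Casq2* and *Srl* rose between 1.55-fold and 1.83-fold. The p-values of genes came from the quasi-likelihood test of edgeR and were adjusted after Benjamini and Hochberg over 22071 genes. Calls needed a fold change above 1.5 and an adjusted p below 0.05, which 8.31% of all genes tested met as higher and 8.39% as lower. In each of the 7 genes every KO value lay above every WT value, which was the case in 27.3% of all genes tested. The median log2 fold change of the 8 genes tested was 0.93, beside -0.0041 for all genes tested. The samples within a genotype were also ordered alike. Of the 8 genes tested, 7 had their lowest WT value in replicate 2, which was also the WT library with the highest keratinocyte sum. All 7 higher genes had their lowest KO value in replicate 1, which was the KO library with the lowest keratinocyte sum.

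**Figure D1:**
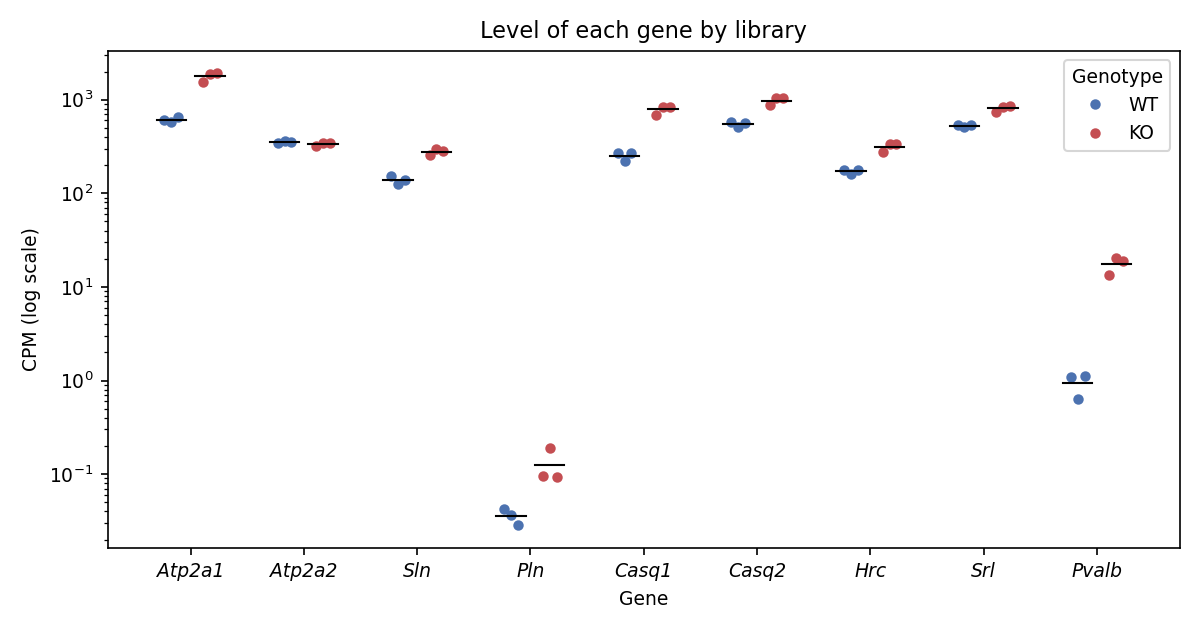
Level of the 9 calcium reuptake and buffering genes in each library, in CPM on a log axis, with WT in blue, KO in red and a black line at the mean of 3 libraries. In all genes except *Atp2a2* the 3 KO points lie above the 3 WT points, and *Pln* lies far below the other genes.

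Sequences upstream of the transcription start were taken from RefSeq (GRCm38.p6) to show the DNA next to the genes that moved. A promoter was found for 6 of the 9 genes. *Sln*, *Atp2a2* and *Srl* were not among them. The 250 bases before the start are printed for *Pvalb*, the gene with the largest rise, and for both calsequestrin genes, which rose to different degrees. The RefSeq starts of *Casq1* and *Hrc* lie just outside the genes as annotated in GENCODE M21. They were not found in a GENCODE transcript of these genes. Capitals mark an E-box (CANNTG, the site of the MyoD family) or a site of the muscle factor MEF2, searched on both strands together with the CArG box, M-CAT (CATTCC) and TATA box (TATAAA). None of the capitalized motifs overlap each other.
Pvalb, chr15:78206401-78206650, minus strand: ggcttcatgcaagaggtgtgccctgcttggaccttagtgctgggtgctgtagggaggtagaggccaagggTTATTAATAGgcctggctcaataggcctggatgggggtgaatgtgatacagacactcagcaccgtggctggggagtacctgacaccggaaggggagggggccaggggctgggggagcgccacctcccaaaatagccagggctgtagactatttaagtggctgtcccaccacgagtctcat
Casq1, chr1:172219896-172220145, minus strand: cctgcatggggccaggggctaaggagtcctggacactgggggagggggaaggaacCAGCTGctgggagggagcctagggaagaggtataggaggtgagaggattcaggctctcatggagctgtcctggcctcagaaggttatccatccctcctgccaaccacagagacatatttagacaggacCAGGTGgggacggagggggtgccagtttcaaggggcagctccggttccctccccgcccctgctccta
Casq2, chr3:102086165-102086414, plus strand: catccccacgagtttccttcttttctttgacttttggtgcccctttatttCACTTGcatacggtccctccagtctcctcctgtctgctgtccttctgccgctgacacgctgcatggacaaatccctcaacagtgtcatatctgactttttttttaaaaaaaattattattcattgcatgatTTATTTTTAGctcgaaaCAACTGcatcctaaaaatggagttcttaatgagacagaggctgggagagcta

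The MEF2 site of *Pvalb* began 180 bases before the start, and that of *Casq2* 69 bases before it. At the first start that RefSeq lists for each gene, an E-box was found in 5 of the 6 promoters, all but that of *Pvalb*, where 66.2% of 32817 promoters of the same length hold one. A second, internal start of *Pvalb* (position 78204237) had an E-box 111 bases before it and no MEF2 site. At the first starts, a MEF2 site was found in 2 of the 6, *Pvalb* and *Casq2*, where 2.92% of all promoters hold one. The *Pln* window held a TATA box 219 bases before the start (12.4% of all promoters), and neither a CArG box (1.47%) nor M-CAT (12.6%) was found in any of the 6. These are matches of letters in the window. The 2 genes with a MEF2 match rose 18.3-fold (*Pvalb*) and 1.78-fold (*Casq2*). A link of any match to the fold changes was not tested.

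The pumps came first. *Atp2a1* (ENSMUSG00000030730.12, chromosome 7, 126445858 to 126463108 on the minus strand of mm10) reached 607, 572 and 659 CPM in the 3 WT samples, against 1541, 1885 and 1914 CPM in the KO ones. The lowest KO sample was 2.34 times the highest WT sample, and the genotypes did not overlap. Its mean rose from 612 ± 44.0 to 1780.0 ± 207 CPM (SD, n = 3), with a log2 fold change of 1.54 ± 0.093 (standard error, as for the fold changes that follow; edgeR adjusted p = 1.44e-06). In the exact permutation test for 1 gene, p was 0.1 (two-sided), the smallest that 3 samples against 3 allow, as for every gene here whose genotypes did not overlap. At its 3′ end *Atp2a1* shares 763 of its 3477 exon bases with *Rabep2*, which lies on the opposite strand and rose from 36.1 ± 0.727 to 83.0 ± 7.91 CPM (log2 fold change 1.20). The strand setting of the counting is not stated, so reads of this stretch cannot be assigned with certainty to either gene.

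*Atp2a2* (ENSMUSG00000029467.15, chromosome 5, 122453513 to 122502225 on the minus strand) stood at 347, 365 and 354 CPM in WT, against 323, 342 and 346 CPM in KO. The KO values lay just under the WT values without overlap, as in 55.9% of all genes in one direction or the other. Its mean went from 355 ± 8.79 to 337 ± 12.1 CPM (log2 fold change -0.076 ± 0.047, edgeR adjusted p = 0.22), which did not pass the test. Of the 9 genes it also had the smallest spread, with a coefficient of variation of 2.47% in WT and 3.58% in KO.

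The pumps were then set against each other within each library, a ratio that no scaling of the library can change. The count ratio of *Atp2a1* to *Atp2a2* was 1.75, 1.57 and 1.86 in WT and 4.77, 5.51 and 5.53 in KO, a 3.05-fold higher ratio (log2 difference 1.61, exact permutation test, two-sided, p = 0.1). Per kilobase of exon, *Atp2a1* made up 75 ± 1.63% of the pump transcripts in WT and 90.2 ± 0.767% in KO (SD, n = 3 each). So the transcript of the fast pump was already the main one in the WT samples, and its share was higher still in KO. A variant of SERCA2 is present in most other cells. Keratinocyte markers summed to 15645 to 23542 CPM in WT, against 650 to 757 CPM in KO. The part of other cells in this ratio was not tested.

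Of the inhibitors, *Sln* (ENSMUSG00000042045.6, chromosome 9, 53850164 to 53854560) was found at 154, 125 and 138 CPM in WT and was at 256, 295 and 282 CPM in KO. It doubled without overlap, from 139 ± 14.3 to 278 ± 19.7 CPM (log2 fold change 1.0 ± 0.078, edgeR adjusted p = 7.47e-06). *Pln* (ENSMUSG00000038583.13, chromosome 10, 53337667 to 53345987) was all but absent, with 4, 3 and 3 counts in the WT libraries and 9, 18 and 9 in those of KO, and it was left out by the filter on low counts. Summed over the samples of a genotype these were 10 and 36 counts, a ratio of 3.56 with a 95% interval of 1.73 to 8.04 (exact Poisson, counting error only). Without the filter, edgeR called it higher with a log2 fold change of 1.79 ± 0.53 (adjusted p = 0.0116 over 37342 genes, of which 5.21% were called higher and 5.57% lower). Of the exon bases of *Pln*, 1785 of 2759 and all 156 coding bases are shared with *Cep85l* or *Gm47644* on the opposite strand. featureCounts leaves out reads that fall on more than 1 gene unless told otherwise, and its settings are not stated, so the count of *Pln* may understate its level. *Gm47644* had 28 to 38 counts in any sample. Of the 6 heart markers, *Nppa*, *Nppb* and *Nkx2-5* had too few counts to be tested, *Gata4* was not called, *Myl7* was lower (2.76 to 0.0907 CPM) and *Myh6* was higher (6.06 to 12.0 CPM) in KO.

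The levels of inhibitor and pump were compared per kilobase. The ratio of *Sln* plus *Pln* to *Atp2a1* plus *Atp2a2* was 0.504, 0.424 and 0.424 in WT and 0.392, 0.374 and 0.353 in KO, which did not overlap, a log2 difference of -0.27 (exact permutation test, two-sided, p = 0.1). WT replicate 1 stood above the other WT samples, and without it the log2 difference was -0.19. The count ratio of *Sln* to *Pln* lay between 1562 and 4868 in the 6 samples (log2 difference of KO from WT -0.75), so *Pln* added next to nothing to *Sln* in this ratio. Sarcolipin transcript thus doubled while its amount per pump transcript was lower in the KO samples.

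**Figure D2:**
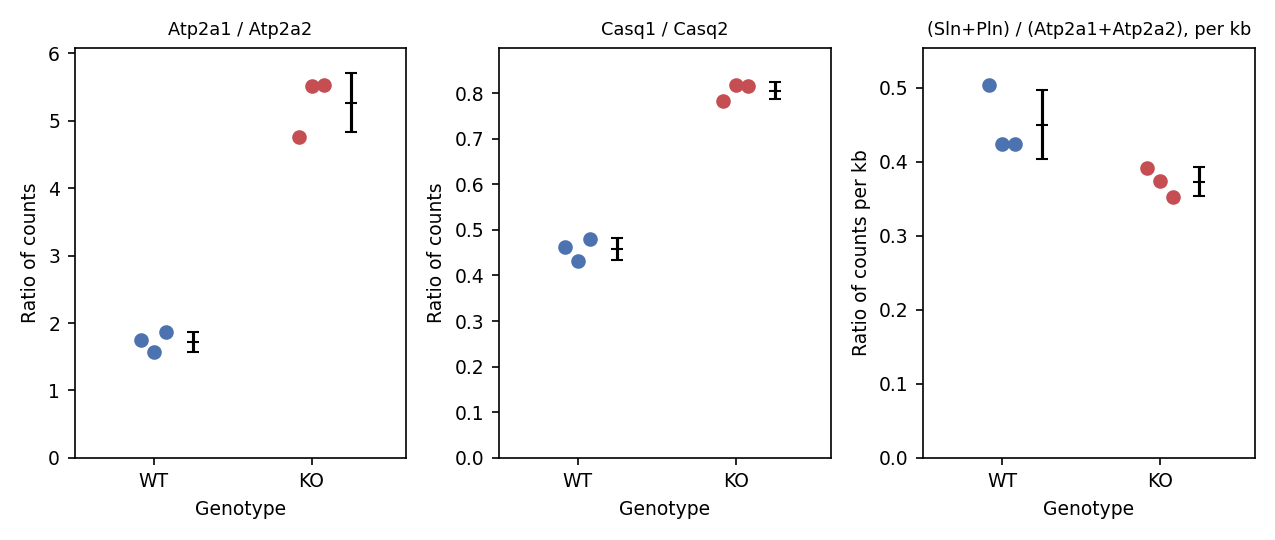
Ratios within each library, WT in blue and KO in red, with the mean and SD of 3 libraries in black: counts of *Atp2a1* over *Atp2a2*, counts of *Casq1* over *Casq2*, and inhibitor over pump counts per kilobase of exon. Both isoform ratios are higher in all KO libraries than in any WT library, and the ratio of inhibitor to pump is lower.

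The calsequestrins followed. *Casq1* (ENSMUSG00000007122.11, chromosome 1, 172209894 to 172219868 on the minus strand) stood at 267, 219 and 269 CPM in WT, against 680.0, 844 and 844 CPM in KO. The lowest KO value was 2.53 times the highest WT value. Its mean rose from 252 ± 28.4 to 789 ± 94.7 CPM (log2 fold change 1.65 ± 0.10, edgeR adjusted p = 1.98e-06). *Casq2* (ENSMUSG00000027861.13, chromosome 3, 102086415 to 102146514) reached 577, 506 and 562 CPM in WT, against 868, 1032 and 1035 CPM in KO. It rose without overlap as well but by less, from 548 ± 37.6 to 978 ± 95.8 CPM (log2 fold change 0.84 ± 0.082, edgeR adjusted p = 3.24e-05).

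The count ratio of *Casq1* to *Casq2* was 0.463, 0.433 and 0.479 in WT and 0.784, 0.818 and 0.815 in KO. It was 1.76-fold higher in KO, with no overlap (log2 difference 0.82, exact permutation test, two-sided, p = 0.1). Per kilobase, *Casq1* made up 39.1 ± 1.23% of the calsequestrin transcripts in WT and 53.0 ± 0.591% in KO. *Casq2* was thus the more abundant calsequestrin transcript in WT, and in KO the shares were close to even with *Casq1* slightly ahead.

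The other proteins of the reticulum, *Hrc* and *Srl*, rose by less than *Casq1*. *Hrc* (ENSMUSG00000038239.11, chromosome 7, 45335290 to 45338974), whose histidine-rich product binds calcium in the lumen and interacts with the pump, measured 178, 161 and 177 CPM in WT, against 273, 334 and 334 CPM in KO. The genotypes did not overlap, and the mean rose from 172 ± 9.06 to 314 ± 35.2 CPM (log2 fold change 0.87 ± 0.080, edgeR adjusted p = 2.10e-05). *Srl* (ENSMUSG00000022519.14, chromosome 16, 4480216 to 4541816 on the minus strand) encodes sarcalumenin, a lumenal glycoprotein that binds calcium and stabilizes the pump. It measured 540.1, 505 and 537 CPM in WT, against 743, 846 and 863 CPM in KO, again without overlap. This was the smallest rise among the 7 genes, from 527 ± 19.3 to 817 ± 65.3 CPM (log2 fold change 0.63 ± 0.067, edgeR adjusted p = 5.42e-05). *Srl* was close to the 1.5-fold threshold, at 0.585 on the log2 scale, and with library size alone as the scaling it was under it (0.56).

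*Pvalb* (ENSMUSG00000005716.16, chromosome 15, 78191114 to 78206400 on the minus strand) gave 102, 53 and 118 counts in WT, against 1259, 1928 and 1846 in KO. These are 1.08, 0.641 and 1.12 CPM in WT, against 13.4, 20.2 and 19.0 CPM in KO. The lowest KO sample was 12.0 times the highest WT sample. Its mean rose from 0.946 ± 0.264 to 17.5 ± 3.62 CPM (log2 fold change 4.19 ± 0.21, edgeR adjusted p = 4.41e-07). *Pvalb* also varied more within a genotype than any other gene tested in the list, with a coefficient of variation of 27.9% in WT and 20.6% in KO. Parvalbumin is also made by some neurons. Of 5 neuron markers 0 were called higher, 2 lower and 3 not called. Their summed level was 10 to 10.6 CPM in WT, against 5.37 to 6.89 CPM in KO. The part of neurons in the level of *Pvalb* was not tested.

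Levels of different genes were compared as CPM per kilobase of exon. In WT the order was *Casq2* (200.4 ± 13.7), *Atp2a1* (176 ± 12.7), *Casq1* (129 ± 14.6), *Sln* (106 ± 10.8), *Srl* (99.1 ± 3.62), *Hrc* (67.0 ± 3.53), *Atp2a2* (58.4 ± 1.45), *Pvalb* (0.908 ± 0.254) and *Pln* (0.0129 ± 0.00252; SD, n = 3). Neighbours in this order whose ranges overlapped were *Casq2* and *Atp2a1*, *Casq1* and *Sln*, and *Sln* and *Srl*. In KO the order began with *Atp2a1* (512 ± 59.6), *Casq1* (405 ± 48.5) and *Casq2* (358 ± 35.0), of which the calsequestrins overlapped, and from *Sln* (211 ± 15.0) downward it was the order of WT. *Pvalb* stood at the 34.7th percentile of all genes tested in WT and at the 87.4th in KO, while the 7 other genes tested stood above the 96th percentile in both genotypes.

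**Figure D3:**
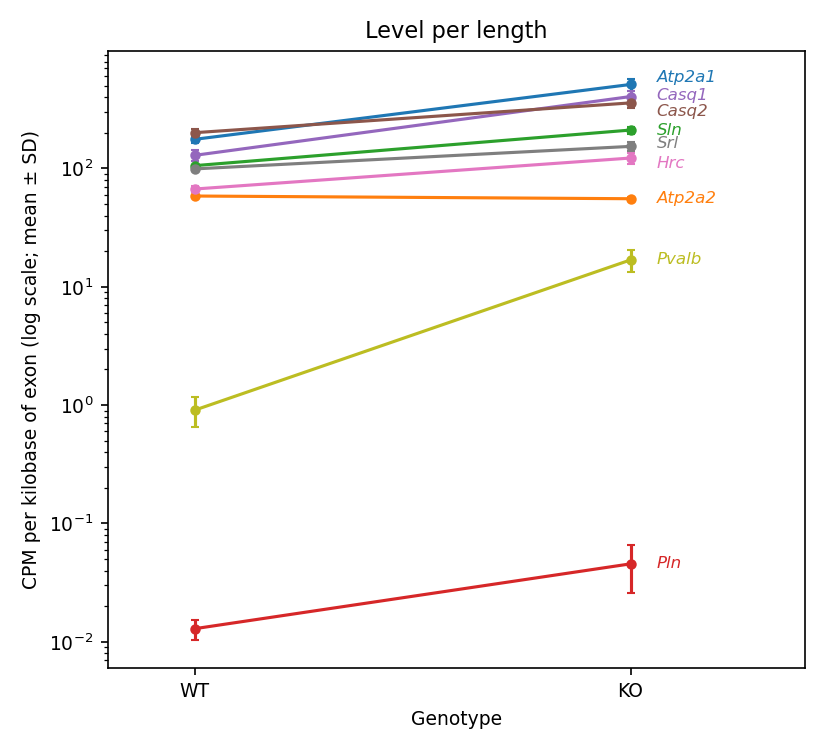
Mean level per kilobase of exon in WT and KO for each gene, on a log axis, with the SD of 3 libraries. *Atp2a1* and *Casq1* pass *Casq2* between WT and KO, *Atp2a2* is level, and *Pvalb* climbs from 0.908 to 16.9 CPM per kilobase.

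Because genes of all muscle fibers were higher in KO, the fit was repeated with library factors taken from the 14 pan-muscle genes, so that values are relative to them. This scaling moved the median log2 fold change of all genes to -0.84 and called 1.38% of them higher and 73.5% lower. Relative to the pan-muscle genes, *Pvalb* (3.36), *Casq1* (0.81) and *Atp2a1* (0.70) were still called higher. *Sln* (0.16), *Hrc* (0.028) and *Casq2* (-0.0042) were close to 0, *Srl* was at -0.21, and none of these 4 was called. *Atp2a2* was called lower (-0.91), close to the median of all genes on this scale. So 3 of the 8 genes were called higher relative to the centre of the pan-muscle list. A link of these 3 genes to fiber type was not tested. The pan-muscle genes themselves spanned log2 fold changes of 0.14 to 1.80 under TMM factors, a range that held *Casq1* and *Atp2a1* and that *Pvalb* exceeded. The 10 fast fiber genes examined as a list were all called higher, with a median log2 fold change of 1.47, and of 10 slow fiber genes 6 were called higher and 0 lower, with a median of 0.74.

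**Figure D4:**
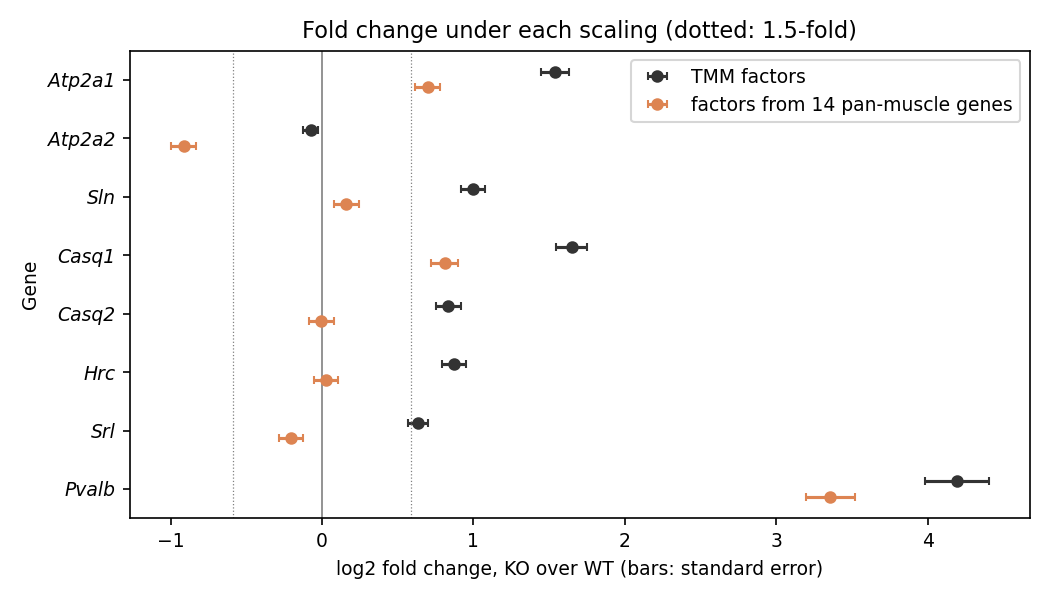
Log2 fold change of KO over WT for the 8 genes tested, with standard errors, under TMM factors (dark) and under factors from the 14 pan-muscle genes (orange). Dotted lines mark a 1.5-fold change. *Atp2a1*, *Casq1* and *Pvalb* lie to the right of the upper line under both scalings.

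The wider calcium system was examined in 8 lists with 66 genes, 65 of them tested. Outside the triad, where calcium is released, 6 of 51 genes were called higher (8.31% of all genes tested were) and 1 lower, with a median log2 fold change of 0.16. With a fold change over 2, 3 of the 9 genes (*Pvalb*, *Casq1* and *Atp2a1*; background 3.51% higher and 5.75% lower) and 8 of the 65 wider genes were higher. At the triad, 9 of 14 were called higher and 0 lower, with a median of 0.73. *Trdn*, which encodes triadin, the anchor of calsequestrin at the release channel, rose the most, from 44.1 ± 1.90 to 125 ± 12.9 CPM (log2 fold change 1.5). *Cacng1* (1.09), a subunit of the voltage sensor, and *Jph1* (1.07), which ties the reticulum to the T-tubule, came next. *Cacng1* is also 1 of the 14 pan-muscle genes, and *Ryr1*, the release channel itself, was at 0.52 and not called.

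Among other pumps and regulators of the pump, 3 of 7 were called higher and 0 lower (8.31% and 8.39% of all genes tested). *Strit1* (1.33), whose peptide DWORF relieves the inhibition of the pump, was low, at 0.552 ± 0.148 CPM (WT) and 1.39 ± 0.550 CPM (KO). It was matched through its RefSeq synonym. *Atp2a3* (0.91), a pump of blood and other cells, and *S100a1* (0.83), a calcium sensor of muscle, also rose. *Mrln*, which encodes myoregulin, an inhibitor of the pump in skeletal muscle, went from 11.8 ± 1.16 to 12.6 ± 1.5 CPM and was not called (log2 fold change 0.087, edgeR adjusted p = 0.52).

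The calcium-binding proteins that every cell keeps in its reticulum stood apart from *Casq1*, *Casq2*, *Hrc* and *Srl*. None of these 9 genes passed both thresholds, with log2 fold changes between -0.29 (*Rcn1*) and 0.12 (*Calu*) and a median of -0.16. *Calr*, which encodes calreticulin, went from 711 ± 18.9 to 607 ± 25.7 CPM. At an adjusted p under 0.05 alone, 5 of the 9 were lower and 0 higher (23.1% and 21.9% of all genes tested were). Of 6 cytosolic buffers and calmodulins tested, 0 were called higher (8.31% of all genes tested) and 1 lower (8.39%). This was *Calml3* (-4.0), an epidermal calmodulin-like gene, which went from 186 ± 45.9 to 11.6 ± 1.18 CPM, and the keratinocyte sum fell in the same libraries.

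Single genes were called higher in 3 of the other lists, with 0 called lower in any of them. Of all genes tested, 8.31% were called higher and 8.39% lower. *Stim1* (0.84), the calcium sensor of the reticulum, was the 1 of 5 genes of store-operated entry. *Slc8a3* (0.85), a sodium-calcium exchanger, was the 1 of 7 genes of calcium export across the plasma membrane. *Camk2b* (1.21), a calmodulin-dependent kinase, was the 1 of 8 calcium-dependent kinase and phosphatase genes. Of 9 genes of mitochondrial calcium uptake 0 were called by edgeR in either direction, with a median of 0.26. At an adjusted p under 0.05 alone, more genes of these lists were higher, 4 of 5 for store-operated entry, 5 of 7 for export (1 was lower), 7 of 8 for kinases and phosphatase and 4 of 9 for mitochondrial uptake, beside 21.9% of all genes tested.

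**Figure D5:**
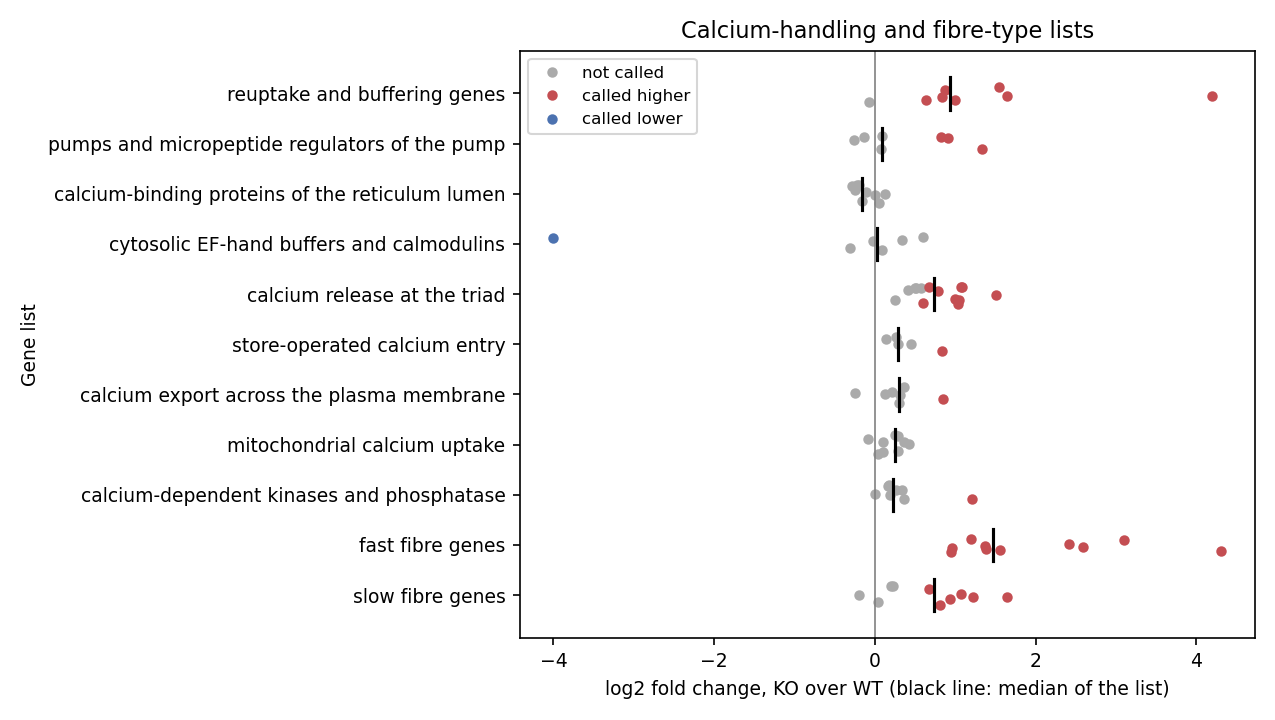
Log2 fold change of KO over WT for each tested gene of the reuptake and buffering list, the 8 wider calcium lists and the fast and slow fiber lists. Points are red where called higher, blue where called lower and gray where not called, and a black line marks the median of a list. The medians of the reuptake, triad, fast fiber and slow fiber lists lie furthest to the right, at 0.73 or above. Those of store-operated entry, export, mitochondrial uptake and kinases and phosphatase lie between 0.23 and 0.30. Pumps and regulators are at 0.087, cytosolic buffers at 0.031 and the calcium-binding proteins of the reticulum lumen at -0.16.

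Genes whose pattern over the 6 libraries was among the most like that of each member were taken by the smallest root mean square (RMS) difference of centred log2 CPM among 12370 genes of at least 5 CPM. With 2 genotypes that stand apart, this likeness is mostly a likeness of fold change. For *Pvalb* these were *Mybpc2* (RMS 0.097), a myosin-binding protein of fast fibers, *Plin4* (0.12), a lipid droplet protein, and *Gm6969* (0.32). For *Atp2a1* they were *Sypl2* (0.019), a membrane protein of the triad, and *Igsf1* (0.051). For *Casq1* they were *Lpl* (0.036), *Myh8* (0.048), the perinatal myosin, and *Abcd2* (0.049). *Casq2* was nearest to *Ccng1* (0.013) and *Gbe1* (0.022), and *Hrc* to *Gbe1* (0.0088), *Pfkm* (0.017) and *Myom2* (0.022). *Gbe1* encodes the glycogen branching enzyme. *Sln* was nearest to *Fitm1* (0.037), *Tceal7* (0.044) and *Idh3a* (0.045), and *Srl* to *Frzb* (0.014), *Thbs4* (0.015) and *Pitpnc1* (0.017). *Atp2a2* was nearest to *Tspan9* (0.013), *Ldlrad3* (0.013) and *Fzd9* (0.014).

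Some of the 9 genes are also used outside skeletal muscle, so markers of other cells stand beside them. The summed level of the 6 heart markers, with *Myh6* at a log2 fold change of 0.99 and *Myl7* at -4.91, was 8.66 to 9.87 CPM in WT, against 11.6 to 13.5 CPM in KO. Of 5 smooth muscle markers 1 (*Myh11*, 1.07) was called higher and 0 lower, at 678 to 683 CPM in WT, against 689 to 720 CPM in KO. Fat cell markers were called higher in 5 of 6 and lower in 1 (*Ucp1*), from 106 to 137 CPM up to 339 to 401 CPM. Macrophage markers were higher in 3 of 5, cartilage markers lower in 3 of 5, bone markers higher in 1 and lower in 1 of 5, Schwann cell markers higher in 1 of 5, and endothelial and fibroblast markers were called in 0 of 5 each. Markers chosen here as defining were not at 0 in every library in any list. The part of these cells in the levels of the 9 genes was not tested.

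None of the 75-base stretches of *Sln*, *Casq2*, *Hrc*, *Srl* or *Pvalb* transcripts occurs in a transcript of another gene, so their counts are little open to sharing of reads. Such stretches made up 1.44% of *Casq1*, 2.42% of *Atp2a2*, 15.8% of *Atp2a1* and 52.7% of *Pln*. None of them joined *Atp2a1* with *Atp2a2* or *Casq1* with *Casq2*.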

How the data were processed

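Leg muscle RNA of 3 WT and 3 KO samples was sequenced as 150 bp paired-end reads. Trimming with Trim Galore 0.6.6, alignment to mm10 with HISAT2 2.2.1 and counting with featureCounts 2.0.1 were done by the authors, whose deposited values are raw, unnormalised gene counts. The annotation release, strandedness and unit of counting (reads or pairs) are not given in the sources used here. Each sample's own file and the series table held the same values. Gene IDs were matched without their version to GENCODE M21 (GRCm38), which held 55141 of 56262, and exon lengths and overlaps come from there.

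The counts were tested with edgeR 4.0.16 (R 4.3.3) on genotype alone, with filterByExpr and TMM factors. Standard errors were taken from the fold change and the F statistic. Ratios were tested with an exact permutation test. The members and lists were chosen with earlier results of these data known. Genes were named by a rule: all 9 genes of the list, in each wider list up to 3 called genes with the largest rise and fall, the 3 nearest genes in pattern, overlapping genes and markers. *Ryr1*, *Mrln*, *Calr* and the ends of ranges were named after their values were seen. The values of some genes that this rule names are not reported here. Alternatives were RLE, upper-quartile, library-size and pan-muscle factors, DESeq2 1.42.0, limma-voom (limma 3.58.1), other filters and fold thresholds, a replicate block and leaving out each sample. The gene tests of edgeR, DESeq2 and limma-voom were run first on simulated counts, and the permutation and Poisson tests were not. WT and KO samples of the same number did not deviate together (correlations of -0.20, -0.13 and 0.047), and no pairing was used. Replicates differed by 5.17 to 35.5 times the counting noise (mean chi-square per gene).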

Additional observations from a re-analysis of the deposited data

How the results depend on the processing

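The count of 7 genes called higher and 0 called lower was the same with RLE and upper-quartile factors, DESeq2 and limma-voom, with at least 10 counts in every sample, and without any 1 of the 6 samples (7 to 7 higher). Across these settings 6.6 to 9.91% of all genes were called higher. It was 6 with library size alone (6.92% of all genes were higher), where *Srl* (0.56) missed the fold threshold. Without a filter on low counts, which lets *Pln* in, it was 8 (5.21% of all genes). With factors from the pan-muscle genes 3 were higher and 1 lower, beside 1.38% and 73.5% of all genes. On that scale *Casq2* (-0.0042) and *Srl* (-0.21) turned below 0. A fold change over 2 left 3 higher (3.51% of all genes). In the wider lists, 15 of 65 genes tested were higher and 1 lower, beside 8.31% and 8.39% of all genes. Without any 1 sample, 15 to 16 were higher and 1 lower. In these lists, the pan-muscle factors gave 1 higher and 30 lower, where 73.5% of all genes were called lower. A fold change over 2 gave 8 higher (3.51% of all genes). No fold threshold gave 37 higher and 9 lower, beside 21.9% and 23.1% of all genes. Pan-muscle factors set the median of the muscle genes to 0 by construction. With the replicate number as a block, 7 of the 9 genes were higher (*Pvalb* 4.19, *Atp2a1* 1.53), as without it, and the block changed no call among them. In the wider lists the block gave 16 higher, 1 of them a cytosolic buffer. Leaving out 1 sample gave log2 differences of 1.54 to 1.68 for *Atp2a1* over *Atp2a2*, 0.77 to 0.85 for *Casq1* over *Casq2*, -0.95 to -0.46 for *Sln* over *Pln* and -0.31 to -0.19 for inhibitors over pumps. Low counts left *Pln*, which was at or near 3 counts per WT library, *Calb1* of the wider lists and 3 heart markers untested.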
